A study of Mus musculus with 8 samples.

Results

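The 10 genes described here are members of the Bcl2 family, which sets the balance between cell survival and death at the mitochondrion. They were chosen by symbol: Bcl2, Bcl2l1, Mcl1 and Bcl2l2 (pro-survival), Bax and Bak1 (pore-forming effectors), and Bid, Bcl2l11, Bbc3 and Pmaip1 (BH3-only), 10 of 21991 gene IDs with annotated exons and of 46113 gene IDs in all. RNA was sequenced from 2 cell fractions sorted from bone marrow of C57BL/6 mice of 8 to 10 weeks, with 4 libraries each. Both fractions were lineage-negative, Sca1-positive, c-Kit-positive and CD150-positive. The CD34-negative fraction is named HSC (hematopoietic stem cells) in the labels and the CD34-positive fraction HPC (hematopoietic progenitor cells). No agent, transgene or deletion is named for either. Nothing in the labels ties a library to its own mouse, so the p-values speak only for the spread among these 8 libraries, part of which may be technical.

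Pro-survival proteins of the family hold the effectors Bax and Bak1 in check. BH3-only proteins, which are switched on by stress, loss of growth signals or DNA damage, bind the pro-survival proteins or engage the effectors directly. Freed effectors open the outer mitochondrial membrane, cytochrome c leaves, and caspases are activated. In blood stem and progenitor cells, Mcl1 is known as a gene whose loss is not tolerated, and Bcl2 and Bcl2l1 are known for protecting different stages of blood formation.

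Exon reads numbered 16291733 to 19070313 per HSC library and 18223082 to 20564901 per HPC library. RNA of Cd34, whose protein parted the fractions, had a level of 120 ± 15.4 CPM (read counts scaled to library size) in the HSC fraction, beside 1280 ± 55.9 in HPC (SD, n = 4). Slamf1, which encodes CD150, was 12.0-fold lower in HPC, at 2.32 to 3.90 CPM against 32.1 to 45.5 CPM in HSC, although both fractions are labelled CD150-positive (edgeR log2 change 3.58, adjusted p = 6.6e-09). Ly6a, which encodes Sca1, was higher in HSC (131 against 72.1 CPM, log2 change 0.87, adjusted p = 3e-05), although both fractions are labelled Sca1-positive. Kit was not called (924 ± 185 against 746 ± 66.4 CPM, adjusted p = 0.08).

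Upstream sequence is shown for the member with the largest exon log2 rise in HSC, Bcl2l1, and for the 2 well-covered members that were lowest in HSC relative to HPC, Bcl2 and Bcl2l11. The RefSeq promoter table (build GRCm38.p6) matched 9 of the 10 members. For Bcl2, the 250 bases upstream of the start lie at chr1:106714291-106714540 (minus strand). For Bcl2l1, the 250 bases upstream of the start at base 152831728 lie at chr2:152831729-152831978 (minus strand), inside the gene's extent in the files and outside GENCODE exons. For Bcl2l11, 30 bases at chr2:128125800-128125829 (plus strand) hold the forkhead letters. Capitals mark GC boxes (GGGCGG, either strand) in Bcl2 and the forkhead letters (GTAAACA) in Bcl2l11.
Bcl2: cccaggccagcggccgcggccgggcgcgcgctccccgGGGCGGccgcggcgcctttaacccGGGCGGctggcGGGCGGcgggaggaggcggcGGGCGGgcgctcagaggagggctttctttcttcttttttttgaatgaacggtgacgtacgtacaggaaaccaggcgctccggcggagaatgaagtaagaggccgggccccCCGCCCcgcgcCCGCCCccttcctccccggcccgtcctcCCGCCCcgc
Bcl2l1: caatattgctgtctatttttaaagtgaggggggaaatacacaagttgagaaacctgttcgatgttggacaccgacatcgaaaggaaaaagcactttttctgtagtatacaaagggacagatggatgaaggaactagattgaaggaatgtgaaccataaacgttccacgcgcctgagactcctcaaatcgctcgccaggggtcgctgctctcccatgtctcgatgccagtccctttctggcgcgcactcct
Bcl2l11: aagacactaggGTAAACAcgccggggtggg

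The Bcl2 window was 74.8% G and C and held 7 GC boxes, while the Bcl2l1 window was 47.6% G and C and held none. The median over 32851 RefSeq windows of 250 upstream bases was 52.4%, and 32.7% of them held a GC box. Upstream of its start at base 128126038, Bcl2l11 had 3 GC boxes, 1 ETS motif and the forkhead letters, 227 to 221 bases from the start, in a window of 72.0% G and C. The window of its second listed start, at base 128127575, held 2 GC boxes and neither the ETS motif nor the forkhead letters. Bbc3, a member that was not called, also had the forkhead letters, 167 to 161 bases upstream of a listed start at base 16310261. Searched on both strands, the forkhead letters were found in 3.17% of all windows, the ETS motif (CCGGAAG) in 6.91%, a TATA box (TATAAA) in 12.4%, a GATA motif (AGATAA) in 9.99%, a STAT motif (TTCNNNGAA) in 7.02% and a CRE (TGACGTCA) in 1.55%. The Bcl2 and Bcl2l1 windows printed held none of these 6 other motifs. The windows of the other 2 Bcl2l1 starts, at bases 152828489 and 152830717, lie in GENCODE exons of the gene, and the first of them held 1 GATA motif. A match describes letters only.

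The fractions differed in their balance of pro-survival transcripts. Bcl2 was 2.0-fold higher in HPC and Bcl2l1 was 1.53-fold higher in HSC, while neither Mcl1 nor Bcl2l2 was called. Of the death genes, the BH3-only members Bcl2l11, Bid and Pmaip1 were lower in HSC, and Bax, Bak1 and Bbc3 were not called. In all, 5 of 10 members passed the test on exon reads (edgeR quasi-likelihood test, Benjamini-Hochberg adjusted p under 0.05), against 37.1% of the 12751 genes tested. Pmaip1 is among the 5, but it passed the filter on low counts through the HPC libraries, where it is high, so its place in the count carries no weight. Higher in HSC was 1 member, where 19.6% of all genes were called higher, and lower were 4, where 17.6% were called lower. The median exon log2 change of the members was −0.14, beside 0.00 for all genes tested, and the median size of a change was 0.32 beside 0.31. With 10 genes, these shares describe the members and set no family apart from other genes. In sorted bulk samples, fewer cells that carry a transcript and less of it per cell cannot be told apart.

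**Figure D1:**
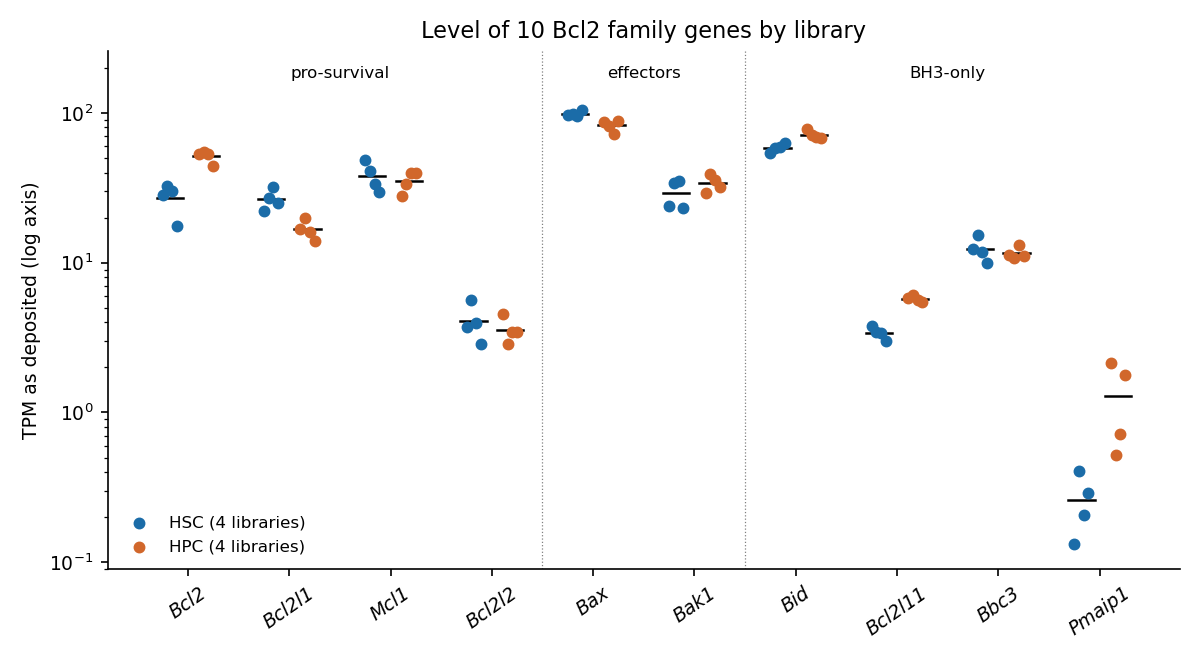
Level of each member in each library, as deposited TPM (transcript abundance scaled for exon length and library size) on a log axis. Points are the 4 HSC (blue) and 4 HPC (orange) libraries, and bars are group means. On this scale the groups lie apart for Bcl2, Bcl2l1, Bax, Bid, Bcl2l11 and Pmaip1, and the levels run from 0.133 TPM for Pmaip1 to 104 TPM for Bax. In CPM the Bax and Bid groups overlap. The share of all genes that lie apart in TPM was not computed.

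Among the pro-survival genes, Bcl2 (gene ID 12043, chromosome 1, bases 106538176 to 106714290, minus strand, mm10) encodes the protein that gives the family its name. It was at 105, 114, 101 and 70.6 CPM in HSC libraries 1 to 4, and at 199, 205, 194 and 182 CPM in HPC libraries 1 to 4. Every HPC library stood above every HSC library, and HSC library 4 was the lowest of all. The log2 change, HSC over HPC, was −1.0 ± 0.13 (SE, edgeR adjusted p = 2.3e-05). These values rest on 1339 to 4120 exon reads per library.

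Bcl2l1 (gene ID 12048, chromosome 2, bases 152758732 to 152834797, minus strand) encodes the pro-survival protein Bcl-xL. HSC libraries 1 to 4 held 81.1, 93.8, 106 and 97.1 CPM and HPC libraries 1 to 4 held 61.2, 72.4, 57.2 and 56.2 CPM. The groups did not overlap, and the direction was opposite to that of Bcl2. The log2 change was 0.61 ± 0.12 (edgeR adjusted p = 0.00069). Cox4i2, on the opposite strand, overlaps Bcl2l1 over 6308 bases. It was higher in HSC as well (7.36 against 1.64 CPM, log2 change 2.16, adjusted p = 0.00014). Whether counting used strand is not given in the sources used here, and the part of Cox4i2 reads in the Bcl2l1 values was not tested.

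Mcl1 (gene ID 17210, chromosome 3, bases 95658410 to 95663179), which encodes a short-lived pro-survival protein, did not differ detectably. Its exon level was 92.9, 74.6, 58.4 and 60.9 CPM in HSC libraries 1 to 4 and 53.7, 64.4, 75.0 and 84.4 CPM in HPC libraries 1 to 4. Both groups spread over nearly the same range, and the log2 change was 0.05 ± 0.16 (edgeR adjusted p = 0.85). Bcl2l2 (gene ID 12050, chromosome 14, bases 54883365 to 54890858), which encodes Bcl-w, was low, at 12.0, 17.2, 11.6 and 9.97 CPM in HSC and 14.6, 9.24, 10.8 and 12.3 CPM in HPC libraries 1 to 4. Its groups overlapped throughout, with a log2 change of 0.11 ± 0.21 (edgeR adjusted p = 0.72). The sign of both small values turned when single libraries were left out.

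Since TPM is scaled for exon length, the pro-survival genes were set side by side within each library. This scaling uses annotated exon length and does not correct for uneven coverage along a transcript. Bcl2 made up 27.5%, 30.5%, 30.0% and 23.6% of the summed TPM of the 4 pro-survival members in HSC libraries 1 to 4, and 52.0%, 49.4%, 47.2% and 43.6% in HPC libraries 1 to 4. The share of Bcl2l1 was 21.8%, 25.7%, 32.3% and 33.3% in HSC and 16.4%, 17.9%, 14.3% and 13.8% in HPC. Bcl2 was thus the leading pro-survival transcript in every HPC library, whereas Mcl1 led in every HSC library. In HSC library 3 that lead was narrow, with 33.7% for Mcl1 and 32.3% for Bcl2l1. Mcl1 held 39.6% ± 5.55 of the sum in HSC and 32.9% ± 5.34 in HPC (SD, n = 4), with overlapping ranges, and Bcl2l2 held 4.20% ± 0.751 and 3.36% ± 0.777. The ratio of Bcl2 TPM to Bcl2l1 TPM was 1.26, 1.19, 0.927 and 0.709 in HSC and 3.16, 2.76, 3.30 and 3.16 in HPC libraries 1 to 4. It did not overlap between the fractions and averaged 1.02 ± 0.253 in HSC and 3.09 ± 0.234 in HPC (SD). Bcl2 and Bcl2l1 each lay apart in TPM, in opposite directions, so their ratio had to lie apart and adds no separate result. The summed TPM of the 4 genes was less far apart, at 95.7 ± 14.0 in HSC and 107 ± 5.71 in HPC, and its ranges overlapped. These shares and ratios are descriptions and were given no test.

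**Figure D2:**
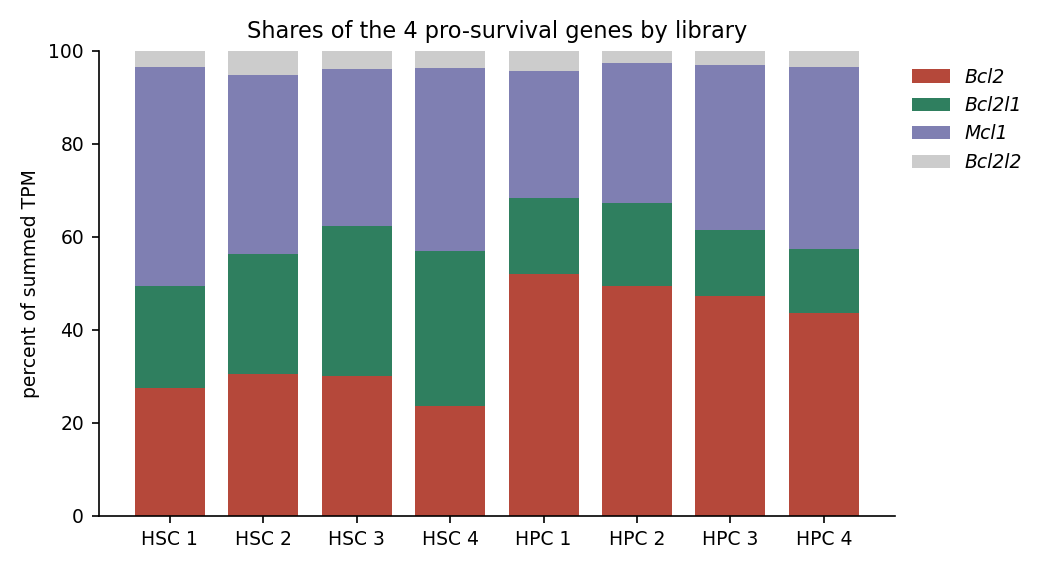
Share of each pro-survival gene in the summed TPM of the 4, by library, stacked to 100 percent. Bcl2 (red) takes 23.6% to 30.5% in the 4 HSC libraries and 43.6% to 52.0% in the 4 HPC libraries, and Bcl2l1 (green) 21.8% to 33.3% and 13.8% to 17.9%.

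Neither pore-forming effector was called. Bax (gene ID 12028, chromosome 7, bases 45461695 to 45468205, minus strand), which moves to mitochondria when activated, was the most abundant member in both fractions on the TPM scale. Its exon reads came to 109, 105, 97.3 and 125 CPM in HSC libraries 1 to 4 and 97.6, 92.6, 79.9 and 111 CPM in HPC libraries 1 to 4. The groups overlapped, and the log2 change was 0.20 ± 0.12 (edgeR adjusted p = 0.21). In deposited TPM, which lacks the between-library scaling used for CPM, the HSC libraries lay at 95.3 to 104 and the HPC libraries at 72.3 to 88.9 without overlap. Bax was also the member with the largest share of reads across splice junctions, 88.3% of exon reads in HSC and 89.5% in HPC, beside 3.13% and 3.61% for Bcl2.

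Bak1 (gene ID 12018, chromosome 17, bases 27019812 to 27028839, minus strand), the effector that resides on mitochondria, was at 24.1, 32.9, 32.4 and 25.0 CPM in HSC libraries 1 to 4. In HPC libraries 1 to 4 it was at 29.7, 40.0, 35.7 and 36.3 CPM. The ranges overlapped, and the log2 change was −0.31 ± 0.15 (edgeR adjusted p = 0.12). The whole gene lies within Ggnbp1 (bases 27018035 to 27036378), on the opposite strand, which was higher in HSC (13.2 against 4.11 CPM, log2 change 1.68, adjusted p = 1.9e-05). Of the Bak1 exon reads, 22.7% to 44.1% in HSC and 31.6% to 38.3% in HPC were counted as unique, and that number equalled the exon-exon reads in 4 of 8 libraries. How Ggnbp1 reads enter the Bak1 values was not tested.

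Among the BH3-only genes, Bcl2l11, Bid and Pmaip1 were called lower in HSC, where 17.6% of all genes tested were called lower. The Bid call did not hold in every alternative, and Pmaip1 carries no weight in such a count, as given below. Bcl2l11 (gene ID 12125, chromosome 2, bases 128126038 to 128162547) encodes Bim, which answers loss of cytokine signals and binds all pro-survival members. Its exon level was 21.6, 18.7, 17.5 and 18.2 CPM in HSC libraries 1 to 4 and 32.9, 34.4, 31.5 and 34.7 CPM in HPC libraries 1 to 4. The groups were tight and well apart, and the level was 1.76-fold higher in HPC. The log2 change was −0.81 ± 0.13 (edgeR adjusted p = 0.00014). It shares 215 bases with the end of Acoxl, which averaged 0.61 CPM in HSC, beside 0.52 in HPC.

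Bid (gene ID 12122, chromosome 6, bases 120893119 to 120917141, minus strand) encodes the BH3-only protein that caspase-8 cleaves, which links death receptors to mitochondria. It was at 63.1, 64.8, 62.6 and 78.9 CPM in HSC libraries 1 to 4 and at 90.7, 83.2, 78.9 and 87.7 CPM in HPC libraries 1 to 4. The groups met at the highest HSC library, number 4, and the lowest HPC library, number 3, whereas in deposited TPM they lay at 54.0 to 63.1 and 67.6 to 78.0. The log2 change was −0.34 ± 0.11 (edgeR adjusted p = 0.021). This call was lost with upper quartile scaling (0.07), on unique exon reads (0.063), on exon-exon reads (0.062), and without HSC library 1 (0.064), 2 (0.054) or 3 (0.07) or HPC library 1 (0.052), all as edgeR adjusted p. Over the 17 alternatives, DESeq2 and limma voom among them, the adjusted p ran from 0.0044 to 0.07. Unique reads were 43.2% to 49.5% of Bid exon reads in HSC and 44.2% to 47.6% in HPC. The gene has a second copy on an alternate locus in the files, to which only 0 to 2 exon reads per library were counted.

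Pmaip1 (gene ID 58801, chromosome 18, bases 66458604 to 66465558) encodes Noxa, a BH3-only protein that binds Mcl1. It was barely detected, with 3, 10, 5 and 8 exon reads in HSC libraries 1 to 4 and 54, 14, 17 and 48 in HPC libraries 1 to 4. That corresponds to 0.179 to 0.523 CPM in HSC and 0.696 to 2.85 CPM in HPC, and 3 reads are worth 0.149 to 0.179 CPM in these libraries. The groups did not overlap, and the HPC libraries fell into a higher pair, 1 and 4, and a lower pair, 2 and 3. The log2 change was −2.35 ± 0.63 (edgeR adjusted p = 0.0087), with the widest error of the 10 members. It passed the filter on low counts only through the HPC libraries, so that a member tested at this level had to differ. With no filter the adjusted p was 0.013 (0.0029 to 0.037 over 15 alternatives), and a filter of 50 reads in 4 libraries removed it.

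Bbc3 (gene ID 170770, chromosome 7, bases 16308320 to 16318334) encodes Puma, a BH3-only protein known to be induced by p53. HSC libraries 1 to 4 held 23.2, 26.9, 20.0 and 19.9 CPM and HPC libraries 1 to 4 held 20.8, 20.0, 24.1 and 22.9 CPM. The ranges coincided, with a log2 change of 0.04 ± 0.15 (edgeR adjusted p = 0.87). Trp53, which encodes p53, at 396 CPM in HSC beside 440 in HPC, was not called (log2 change −0.15, adjusted p = 0.26).

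The summed TPM of the 4 BH3-only members was 70.4, 77.5, 74.8 and 76.3 in HSC libraries 1 to 4 and 97.2, 88.4, 88.6 and 86.0 in HPC libraries 1 to 4. Bid supplied most of it in both fractions, 78.5% ± 3.20 in HSC and 79.3% ± 1.25 in HPC (SD, n = 4). Bcl2l11 supplied 4.58% ± 0.616 and 6.40% ± 0.348, without overlap. The ratio of Bcl2 TPM to Bcl2l11 TPM overlapped between the fractions, at 7.86 ± 1.53 in HSC and 8.92 ± 0.617 in HPC, both genes being lower in HSC. The ratio of Bcl2l1 TPM to Bcl2l11 TPM was 5.86 to 9.49 in HSC and 2.54 to 3.29 in HPC, and did not overlap. This was fixed by the levels of Bcl2l1 and Bcl2l11, which each lay apart in TPM, in opposite directions. Set against the effectors, the summed pro-survival TPM was 0.751 ± 0.112 of the Bax and Bak1 sum in HSC and 0.918 ± 0.0873 in HPC, with ranges that overlapped narrowly.

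Ranges of exon CPM did not overlap between the fractions for 4 of 10 members (Bcl2, Bcl2l1, Bcl2l11 and Pmaip1), and for 36.7% of all genes tested. Pmaip1 carries no weight in this count either, since it passed the filter on low counts only through the HPC libraries. By mean TPM, the order in HSC was Bax (98.4), Bid (58.7), Mcl1 (38.0), Bak1 (29.0), Bcl2 (27.0), Bcl2l1 (26.6), Bbc3 (12.4), Bcl2l2 (4.05), Bcl2l11 (3.41) and Pmaip1 (0.26). The neighbours Mcl1 and Bak1, Bak1 and Bcl2, Bcl2 and Bcl2l1, and Bcl2l2 and Bcl2l11 had overlapping ranges there and were not separated. In HPC the order by mean TPM was Bax (82.5), Bid (71.4), Bcl2 (51.3), Mcl1 (35.1), Bak1 (34.2), Bcl2l1 (16.7), Bbc3 (11.5), Bcl2l11 (5.75), Bcl2l2 (3.56) and Pmaip1 (1.28). Overlap between neighbours was found there for Bax and Bid, although Bax was above Bid in all 4 libraries, and for Mcl1 and Bak1. Bcl2 thus stood level with Bcl2l1 in HSC, and above Mcl1 in all 4 libraries of HPC.

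Intron reads, which come mostly from unspliced RNA, gave a second readout of the same libraries and were fitted on their own. Bcl2, Bid and Bcl2l11 were lower in HSC in intron reads as well, and no member was called higher. That makes 3 of 9 members tested, beside 21.1% of 12641 genes tested, of which 11.0% were called higher and 10.1% lower. The groups did not overlap in intron CPM for 4 of 9 members and 24.6% of all genes. The median log2 change in intron reads was 0.20 for the 9 members and 0.01 for all genes.

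Bcl2 intron reads came to 243, 223, 215 and 156 CPM in HSC libraries 1 to 4 and 466, 415, 443 and 319 CPM in HPC libraries 1 to 4 (log2 change −0.97 ± 0.15, edgeR adjusted p = 0.00023). The value is close to that of its exon reads, and intron reads were 34.3% of the Bcl2 gene reads in HSC and 33.4% in HPC. Bcl2l1 intron reads came to 129, 133, 163 and 125 CPM in HSC and 104, 108, 99.5 and 116 CPM in HPC libraries 1 to 4. These did not overlap but missed the threshold (log2 change 0.37 ± 0.14, edgeR adjusted p = 0.071). Bid, with overlapping exon levels, was apart in intron reads, at 57.4, 58.9, 48.4 and 56.2 CPM in HSC and 95.6, 86.7, 85.3 and 79.8 CPM in HPC libraries 1 to 4 (log2 change −0.65 ± 0.15, edgeR adjusted p = 0.0045).

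Bcl2l11 intron reads were few, 35 to 95 per HSC library and 96 to 120 per HPC library. In CPM they were 10.6, 10.3, 19.2 and 9.06 in HSC and 21.7, 24.5, 24.4 and 27.2 in HPC libraries 1 to 4, apart but with HSC library 3 near the HPC range (log2 change −0.99 ± 0.29, edgeR adjusted p = 0.023). This call was lost without HSC library 1 (adjusted p = 0.059), 2 (0.06) or 4 (0.052) or without HPC library 4 (0.056), with edgeR adjusted p of 0.0048 to 0.06 over its 11 alternatives. The other members tested in intron reads were not called: Mcl1 (log2 change −0.08), Bcl2l2 (0.43), Bax (0.20), Bak1 (0.20) and Bbc3 (0.60), with edgeR adjusted p from 0.25 to 0.89. Pmaip1, with 0 to 14 intron reads per library, was too low to be tested. Differences between a member's exon and intron changes were not tested.

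**Figure D3:**
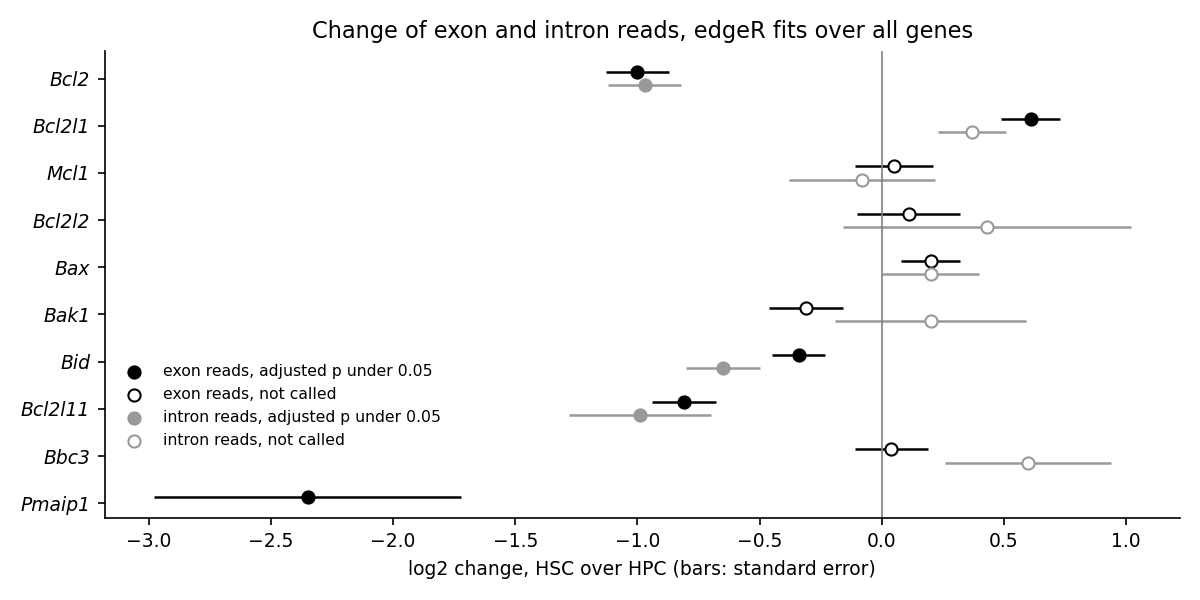
Log2 change, HSC over HPC, of exon reads (black) and intron reads (grey) for each member, with standard errors from the edgeR fits as bars and filled points where the adjusted p is under 0.05. Bcl2, Bid and Bcl2l11 are filled for both readouts, at −1.0 and −0.97, −0.34 and −0.65, and −0.81 and −0.99, while Bcl2l1 (0.61) is filled for exon reads alone and Pmaip1 (−2.35) has no intron point, being too low to test.

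The fractions also differed in RNA of genes listed as markers of other cell types. Whether this RNA came from such cells or from the sorted cells was not tested, nor was the part of such cells in the member values. T and NK cell markers were higher in HSC for 5 of 7 tested and lower for 0, with a summed level of 46.6 to 65.4 CPM in HSC and 16.8 to 25.1 CPM in HPC. Red cell markers were higher in HSC for 3 of 7 (183 to 462 against 40.9 to 161 CPM) and megakaryocyte markers for 3 of 6 with 1 lower (247 to 291 against 154 to 206 CPM). Of the megakaryocyte markers, Vwf was at 77.7 CPM in HSC and 5.54 in HPC, and it carries most of the gap between these sums. Itga2b was the 1 called lower (76.4 against 93.8 CPM), and Pf4 was not called (54.9 against 62.1 CPM). The sum without Vwf was not computed. B cell markers were higher in HSC for 3 of 6 (64.6 to 83.0 against 58.2 to 65.9 CPM), but the most abundant of them, Cd79b, was not called (53.0 against 54.1 CPM). Neutrophil and monocyte markers were lower in HSC for 2 of 7, Csf1r (4.02 against 25.4 CPM) and Itgam (1.88 against 38.3 CPM). The whole list summed to 177 to 264 CPM in HSC and 235 to 400 CPM in HPC. The defining neutrophil gene Ly6g was at 0 in all 8 libraries. Lyz2, the most abundant gene of that list, was not called (191 against 262 CPM). Mast cell, basophil and eosinophil markers were lower in HSC for 5 of 8 and higher for 1, Gata2, which stem cells also express. Gata2 averaged 380 CPM in HSC and 178 CPM in HPC. All 8 genes summed to 373 to 492 CPM in HSC and 332 to 459 CPM in HPC. Without Gata2 the other 7 summed to 8.26 to 99.1 CPM in HSC and 158 to 263 CPM in HPC, so Gata2 carries the first sum.

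Beyond the 10 members, 58 further genes of the death pathway were listed by role, and of the 52 that could be tested 10 were higher in HSC, 7 were lower and 35 were not called. Of all genes tested, 37.1% were called, 19.6% higher and 17.6% lower, so these counts set the lists apart from no other genes. In intron reads, 8 of 46 tested were called, 3 higher and 5 lower, beside 21.1% of all genes. Of 15 other Bcl2 family genes, 10 were tested, 1 was higher, 2 were lower and 7 were not called. Bok, a pore-forming relative of Bax and Bak1, was at 2.44, 2.88, 1.76 and 3.43 CPM in HSC and 7.29, 7.40, 7.97 and 11.0 CPM in HPC libraries 1 to 4. It was the one effector of the family to be called, 3.20-fold higher in HPC (log2 change −1.68 ± 0.29, edgeR adjusted p = 0.00032). Its intron reads were lower in HSC too (log2 change −1.71, adjusted p = 0.016). Bcl2l12 was lower in HSC (log2 change −0.48 ± 0.13, adjusted p = 0.01), and Bnip3l, which marks mitochondria for removal, was higher (0.46 ± 0.09, adjusted p = 0.0011).

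Of the other pro-survival relatives 2 of 4 were tested, as were 2 of 4 other BH3-only genes, and these were not called on exon reads (edgeR). Bcl2a1b, one of a group of near-identical copies whose reads cannot be assigned with certainty, averaged 1.69 CPM in HSC beside 0.79 in HPC (log2 change 1.09 ± 0.46, edgeR adjusted p = 0.082). Bad, a BH3-only gene whose product is held inactive by growth signals, was at 46.4 and 48.3 CPM in exon reads (log2 change −0.06, adjusted p = 0.73). Its intron reads were higher in HSC (log2 change 1.46, adjusted p = 0.00029), which its exon reads did not show.

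Downstream of the mitochondrion, 3 of 13 genes of the apoptosome, caspase and mitochondrial release list were higher in HSC, 2 were lower and 8 were not called (median log2 change 0.01). Casp2, an initiator caspase, was lower in HSC (log2 change −0.59, edgeR adjusted p = 0.00032). Casp6, a caspase, and Htra2, a mitochondrial protease, were higher in HSC, with log2 changes of 0.36 and 0.47 and edgeR adjusted p of 0.015 and 0.0024. Apaf1, Casp9 and Cycs, which form or trigger the apoptosome, were not called, with log2 changes of −0.23, 0.02 and −0.23.

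Of the 7 inhibitors of apoptosis, 3 were higher in HSC, 1 was lower and 3 were not called (median log2 change −0.05). Birc5 (survivin), which also acts in cell division, was lower in HSC (log2 change −0.90 ± 0.11, edgeR adjusted p = 1e-05), and Naip5 and Naip2, sensors of bacterial proteins, were higher (1.07, adjusted p = 0.00059, and 1.48, adjusted p = 0.00086). Reads of the Naip genes may be split among near-identical copies. In the death receptor list, 2 of 9 were higher, 1 was lower and 6 were not called (median log2 change 0.18). Casp8, which encodes the caspase that cleaves Bid, was lower in HSC (123 ± 4.46 against 194 ± 10.3 CPM, log2 change −0.66, adjusted p = 2.2e-05), in the same direction as Bid. Fas, a death receptor, was higher in HSC from a low level (6.47 against 1.36 CPM, log2 change 2.24, adjusted p = 0.00017), as was its ligand Fasl (2.73 against 0.893 CPM, log2 change 1.61, adjusted p = 0.016).

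Among 13 tested regulators of the members, 1 was higher in HSC, 1 was lower and 11 were not called (median log2 change 0.00). Foxo1, a forkhead factor of the class known to act on Bcl2l11, was higher in HSC (42.9 ± 3.97 against 22.3 ± 1.66 CPM, log2 change 0.94, edgeR adjusted p = 3.1e-05). Bcl2l11 itself was lower in HSC, and a link between Foxo1 and Bcl2l11 was not tested. Foxo3 was not called in exon reads, with 76.0 and 75.9 CPM (adjusted p = 0.99), while its intron reads were lower in HSC (log2 change −0.40, adjusted p = 0.047). Ywhaq, a 14-3-3 protein of the type that holds Bad and Bax in the cytosol, was lower in HSC (log2 change −0.46, adjusted p = 0.001).

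**Figure D4:**
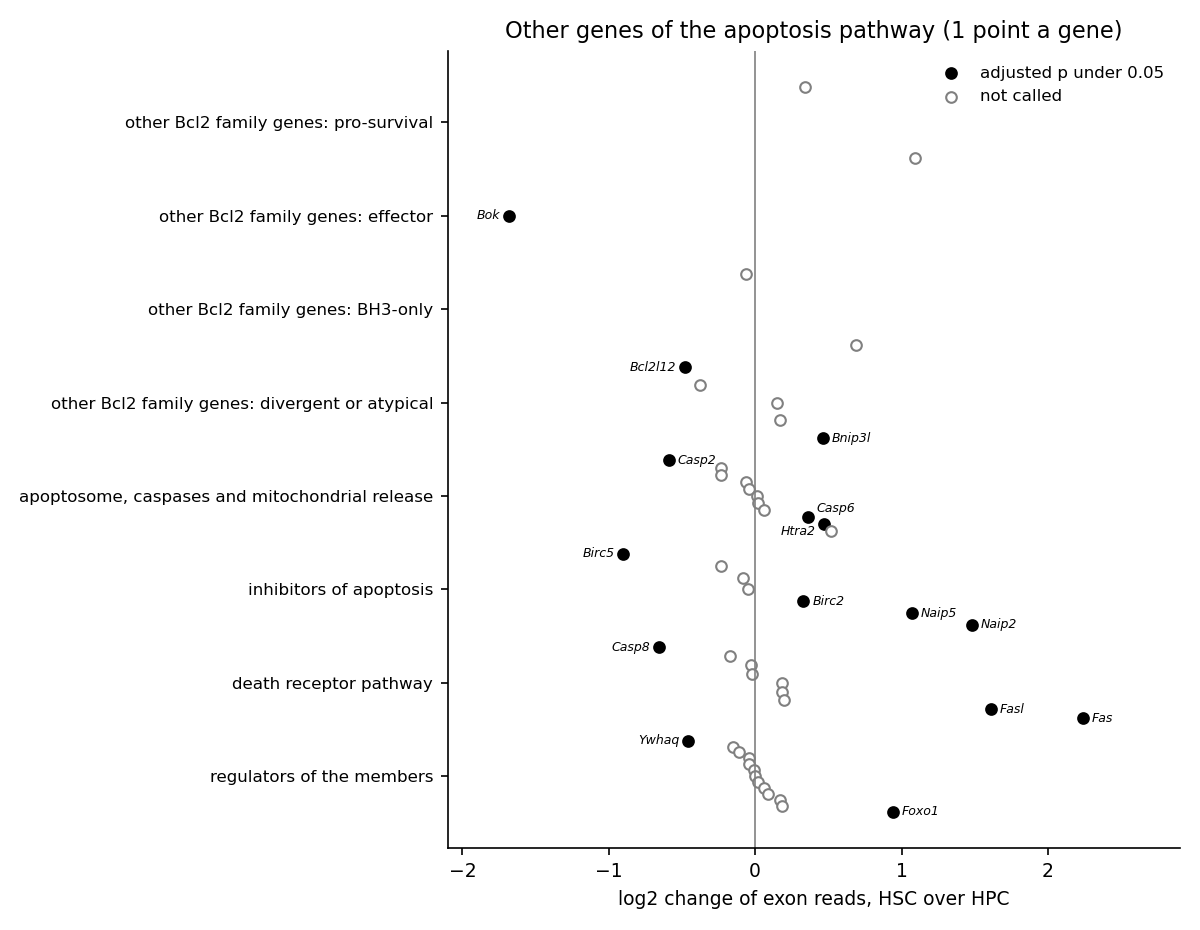
Log2 change of exon reads, HSC over HPC, for tested genes of the wider lists, leaving out those not reported here, 1 point a gene, grouped by role. Filled points have an edgeR adjusted p under 0.05, with Fas (2.24) and Bok (−1.68) at the ends of the range.

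The genes whose profile over the 8 libraries was most like that of Bcl2l1 were Ddhd2, Akap8l and Ubqln2, at root mean square distances of 0.07, 0.0745 and 0.0756 on the log2 CPM scale, among 10260 genes compared. For Pmaip1 the nearest were Cd68, Lgals1 and Cebpd, at 0.306, 0.345 and 0.35, among 10261 genes. The Pmaip1 distances are larger than those of Bcl2l1, and its own profile rests on 3 to 54 exon reads per library. Before log2, 0.5 was added to CPM, more than the Pmaip1 mean of 0.344 CPM in HSC, which shrinks its profile. The edgeR log2 changes of Cd68, Lgals1 and Cebpd were −1.22, −1.27 and −0.92, beside −2.35 for Pmaip1.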

How the data were processed

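Bulk RNA-seq libraries of 2 sorted fractions, 4 HSC and 4 HPC, were told apart by sample title. RNA from 5000 sorted cells (the protocol speaks of HSC only) was isolated with ISOGEN, amplified with the SMARTer Pico kit over 18 PCR cycles and made into Nextera XT libraries, per the labels' protocols. The submitters' processing notes name build mm10. Which aligner, counting tool and strand setting were used is not given in the sources used here. Per the file headers, the authors deposited counts of exon, intron and exon-exon reads for each gene row, total and unique. Of the exon reads, 81.5% to 85.5% were unique. The TPM values were deposited by the authors per row and were summed per gene, with no test. The deposited RPKM values were not used.

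Rows of a gene on alternate loci were summed per NCBI gene ID. Total exon reads of 21991 genes and, separately, total intron reads of 19685 genes with more than 1 exon were compared by edgeR 4.0.16 (R 4.3.3) with filterByExpr, TMM, quasi-likelihood F test, Benjamini-Hochberg adjustment over all genes tested, threshold 0.05. Changes are given as log2 of HSC over HPC. The standard error is the absolute change over the root of F, CPM is TMM-normalised, and folds are ratios of mean CPM. The biological coefficient of variation was 18.3%. The fit was tested on simulated data. Replicate libraries differed by more than sampling noise, so none was taken as a repeat deposit. Whether PCR copies were removed before counting is not given in the sources used here, so limits from 3 reads cover counting error only.

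The members, lists and tests were chosen with earlier results of these data known. By the naming rule, every member is given in every library. Of each wider list, up to 3 called genes with the smallest adjusted p were taken, or the most abundant gene where none was called. For likeness, the 3 nearest profiles of the called members with the largest rise and fall were taken among named genes of at least 5 CPM. Birc6, Casp6, Htra2, Apaf1, Casp9, Cycs, Trp53, Foxo3, Vwf, Pf4, Itga2b, Cd79b and Lyz2 were named after their values were seen. So were the overlapping genes. Some listed genes that the rule takes are counted but not reported here by name. The motifs and the choice of windows shown were also set after values were seen, and promoter windows are from RefSeq, with exons checked in GENCODE. Alternatives were RLE and upper quartile scaling, other count filters, the replicate number as a block, DESeq2 1.42.0, limma 3.58.1 voom with sample weights, unique reads, leaving out each library and, added after seeing the data, exon-exon reads.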

Additional observations from a re-analysis of the deposited data

Results flagged for a closer look

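Bid in the HSC fraction had 1 library far from the rest: HSC library 4, the highest, was at 78.9 CPM of exon reads while the other 3 lay between 62.6 and 64.8 CPM, so that its gap to the nearest took 0.869 of the whole range, above Dixon's 95% critical value for 4 samples. It was the only such case among 20 groups tested (10 members in 2 fractions), and chance gives about 1 in 20 groups. Without this library the Bid exon change was −0.43 and the call held.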

How the results depend on the processing

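Bcl2, Bcl2l1 and Bcl2l11 kept their direction and their call on exon reads in all 17 alternatives (log2 changes of −1.14 to −0.87, 0.56 to 0.70 and −1.03 to −0.74). Pmaip1 did in the 15 that tested it (−2.62 to −2.02, adjusted p of 0.0029 to 0.037). These fits rest on the same few reads, and Pmaip1 passed the main filter only through the HPC libraries, so its repeated call adds no support. Bid kept its direction (−0.43 to −0.26) but lost its call in 7 of 17 (adjusted p of 0.0044 to 0.07). On exon-exon reads 3 members were called in place of 5, of 9 tested: Pmaip1 was not tested there and Bid missed the threshold. Leaving out 1 library gave 4 to 5 members and 4184 to 4587 genes called on exon reads, and 2 to 3 members and 2326 to 2583 genes on intron reads. Upper quartile scaling moved the median of all genes to 0.08 and the split to 2929 higher and 1820 lower, from 2493 and 2240. Signs turned, none of them called, for Bbc3 on exon-exon reads (−0.17) and, with 1 library left out, for Mcl1 (−0.10 to 0.15), Bcl2l2 (−0.07 to 0.23) and Bbc3 (−0.07 to 0.10) in exon reads and for Mcl1 (−0.23 to 0.03), Bax (−0.01 to 0.32) and Bak1 (−0.08 to 0.35) in intron reads. With a replicate block, 5036 genes and 5 members were called on exon reads, and 2590 genes and 3 members on intron reads. Libraries of the same number shared no clear deviation (r of −0.118 to 0.146, 4 of 8 nearest to their own number). Between libraries of different numbers, r ran from −0.198 to 0.0733. The numbers were not taken to pair the samples, but this check cannot exclude a pairing. Depth limits Pmaip1 most, at 3 to 54 exon reads. The causes of these changes were not tested.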

Other observations

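Bcl2 had as its nearest profiles over the 8 libraries Sgk3, Cdc7 and Abcb1b, at root mean square distances of 0.0853, 0.0994 and 0.103 on the log2 CPM scale. Bcl2 was taken for this after its values were seen, and nearness to its profile fixes the direction of these genes. Birc6, an inhibitor of apoptosis, was called in intron reads (log2 change −0.33, edgeR adjusted p = 0.028) and not in exon reads (−0.05, adjusted p = 0.77). Bad, Birc6 and Foxo3 were the 3 genes of the wider lists called in intron reads alone.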
